A study of Anas platyrhynchos x Cairina moschata with 205 samples.

Results

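HSF1, HSF2, HSF3 and HSBP1 were followed in the livers of mule duck embryos that were or were not exposed to embryonic thermal manipulation (TM). They were taken by their symbols from the 92 quantitative PCR assays of the study. The 4 genes are the heat shock factors of the panel and HSBP1, the heat shock factor binding protein 1. All of them belong to the 81 genes that were compared between groups, which also include chaperones.

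Mule ducks are the sterile hybrid of a Muscovy drake and a Pekin duck, and the eggs were of genotype H85. In the TM groups the incubation temperature was raised by 1 °C from day 13 of embryogenesis (E13). In the first trial, TM embryos of E13 were set against control embryos kept at the unchanged temperature, with 8 livers per group at each of 7 points, the earliest 30 min and the latest 7 h after the increase. In the second trial the increase came back each day for part of the day, TM livers of E16, E20 and E24 were taken 1 h after it, and the points were E12, E16, E20, E24, E28 and E30 (hatching), again with 8 TM livers and 8 control livers, except at E16 with 8 TM and 5 control livers. The timeline of the study puts E12 before the first increase and E28 after the last one, although the sample labels describe the embryos of these days like those sampled during the stimulus. Each group at each point had a single incubator (in the second trial until the eggs moved to a shared hatchery at E28). TM and incubator therefore cannot be told apart, and a p-value refers to variation among livers only. One pair of incubators gave the livers of 1 h, 3 h and 5 h, and the other pair gave those of the remaining hourly points. The label of liver was checked by the median Ct of listed markers, of which ALB was the earliest. ALB, the plasma protein albumin, had a median Ct of 8.10 cycles in the first trial and 7.62 in the second. STAB1, a scavenger receptor of sinusoidal endothelial cells that was also a reference gene, had 20.1 and 18.3 cycles. The other hepatocyte genes were APOB (13.0 and 12.1), LIPC (15.3 and 14.8), CYP2C (19.0 and 17.4) and HNF4 (19.9 and 18.8). HNF4 thus came later than STAB1 in the second trial. The other non-parenchymal genes were IL18 (20.7 and 20.5), HGF (21.7 and 21.2) and TGFB1 (22.8 and 22.1). ALB came much later in control replicate 7 of E16 (23.7 cycles) and in TM replicate 1 of E20 (22.5 cycles), where it does not bear out the label. In whole liver, fewer cells of a type and less RNA per cell cannot be told apart.

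Heat shock factors are transcription factors that bind heat shock elements in the promoters of chaperone genes. HSF1 is the main heat-activated factor of mammals, where it is held inactive in unstressed cells and forms trimers when proteins unfold. HSF2 forms complexes with HSF1 and is best known from development, and HSF3 is a heat-responsive factor first described in chicken. HSBP1 binds the trimerization domain of HSF1 and damps its activity, as shown in mammalian cells and in worms. Much of the control of these factors acts on the protein, which was not measured here.

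The members were compared as relative expression ratios, put on the log2 scale. A value of 0 is the average of the gene over the livers of its trial, and a difference of 1 is a doubling or 1 PCR cycle. A ratio says nothing of how abundant one gene is beside another. At each point, TM minus control was tested on the means with an exact permutation test (two-sided), at the study's threshold (an unadjusted p under 0.05), for genes with a ratio in at least 6 livers of each group (4 at E16). limma, fitted over the whole panel at each point, gave the 95% intervals and the p adjusted over all genes. Over the 4 members there were 748 ratios of 820 possible ones. HSF1 had a ratio in 92 of 112 livers of the first trial and 83 of 93 of the second. HSF2 had one in 105 and 88 livers, HSF3 in 99 and 88, and HSBP1 in 105 and 88. At none of the 13 points did the number of livers with a ratio of any member differ between TM and control by Fisher's exact test, which at 7 h was passed by 1.23% of the 81 genes and at the other points by none.

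HSF1 gave the widest spread between livers. Its SD within groups, pooled over the groups of the first trial, was 2.31 on the log2 scale, the highest of the 81 genes, whose median was 0.73. In the second trial it was 1.46 (the sixth highest of 81, median 0.74). The other members were also above the median of the panel in both trials. HSF2 had 0.97 in the first trial and 1.09 in the second, HSF3 had 1.24 and 0.76, and HSBP1 had 1.09 and 1.14. Ratios are computed from the Ct, so a low ratio and a late Ct of a gene are not separate observations. Of the 98 Ct of HSF1 in the first trial, 28 lay above 24 cycles, 10 of 46 in TM livers and 18 of 52 in control livers. In the second trial 5 of 89 did, none of them among the 46 of TM livers and all 5 among the 43 of control livers. HSF2 and HSF3 each had 5 Ct above 24 cycles in the first trial, and HSBP1 had 16 of 110. Of the 775 Ct of the members, 3 lay above 30 cycles, the length of the amplification program in the study's methods, all of them in control livers of the first trial. In 31 cases a Ct had been deposited without a ratio. When the ratio was recomputed from that Ct, it fell outside the range of its own group in all 31 cases, above it in 27 and below it in 4. The blank ratios of HSF1 (13) and HSF3 (9) were the most numerous, so that means on the deposited ratios leave out mostly high values of these genes.

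**Figure D1:**
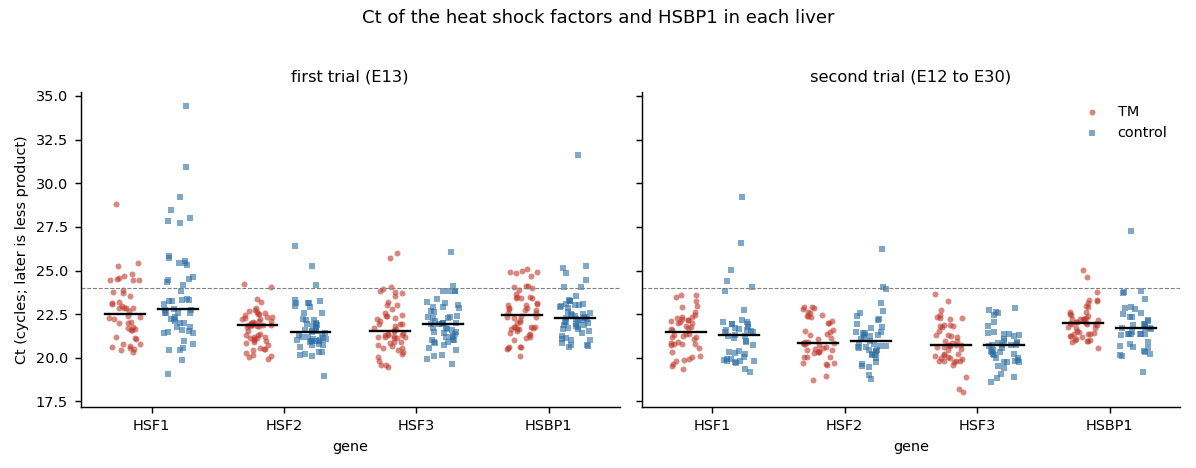
Ct of each member in each liver of the first trial (left) and the second trial (right), with TM livers as circles left of the control livers (squares), the median of each as a black bar, and a dashed line at 24 cycles. HSF1 reached 34.4 cycles in control livers of the first trial and had 28 of 98 Ct above the line, while most Ct of the other members stayed below it.

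In the first hours after the temperature increase, 4 of the 25 differences of the members that could be tested passed the exact permutation test. HSF2 was lower in TM livers at 30 min, HSF3 was higher at 1 h, and HSBP1 was lower at 3 h and at 7 h. Over the panel, 10.1% of the 525 differences of this trial passed the same test (6.86% lower and 3.24% higher in TM). At 2 h, 4 h and 5 h, where no member passed, the share over the panel was 6.58%, 5.41% and 14.5%. None of the 4 passed limma's adjusted p, for which the smallest value of a member was 0.268, and no gene of the panel passed it in this trial. In all, 19 of the 25 differences were below 0 and 6 were above. Over the panel, the genes higher in TM were 35 of 77 at 30 min, 47 of 75 at 1 h and 27 of 76 at 2 h. They were 17 of 74 at 3 h, 39 of 74 at 4 h, 59 of 76 at 5 h and 20 of 73 at 7 h.

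**Figure D2:**
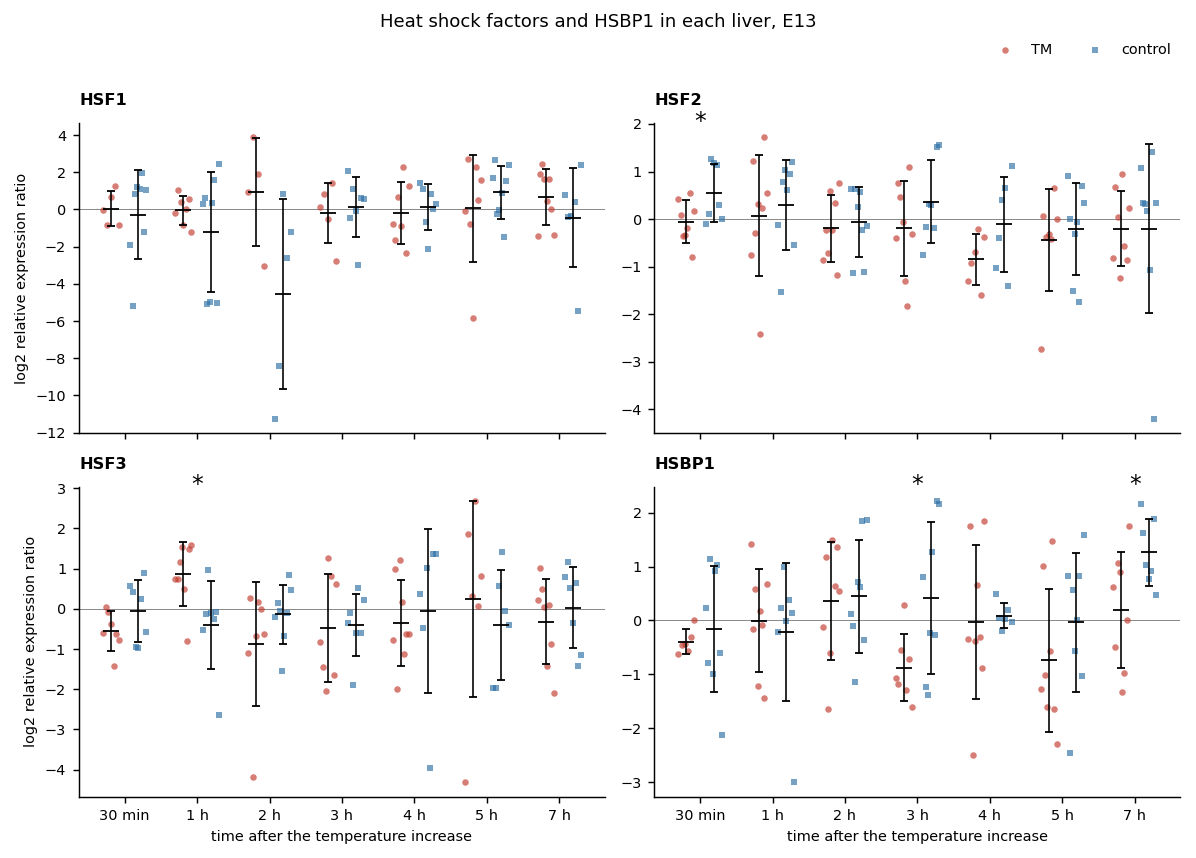
Log2 relative expression ratio of each member in each liver of E13 (y axis) by time after the temperature increase (x axis), with TM livers as circles left of the control livers (squares). Black bars give the mean and SD of the group, and an asterisk marks a difference past the exact permutation test, as for HSF3 at 1 h with 0.87 in TM livers and −0.39 in control livers.

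HSF3, the avian heat-responsive factor, was higher in TM livers than in control livers 1 h after the increase. Its log2 ratios ran over −0.79 (lowest), 0.96 (median) and 1.58 (highest) in TM livers, against −2.65, −0.12 and 0.98 in control livers. The groups overlapped through single livers. TM replicate 6 lay below all control livers but 1, and control replicate 3 lay above 4 of the 8 TM livers, while 7 of the 8 TM livers were between 0.50 and 1.58 and 5 of the 7 control livers were between −0.53 and −0.08. The mean was 0.87 ± 0.79 in TM livers (SD, n = 8) and −0.39 ± 1.10 in control livers (n = 7), a difference of 1.27 (95% interval 0.29 to 2.24, 2.40-fold, exact permutation p = 0.0165, limma adjusted p = 0.268). At this point 10.7% of 75 genes passed, 4% higher and 6.67% lower in TM. Leaving out any one of the 15 livers kept the call, with exact permutation p between 0.00233 and 0.0370, and without control replicate 7 the difference was 0.89 (p = 0.0370). The difference was 0.85 with every deposited Ct turned into a ratio, and then did not pass (exact permutation p = 0.193). Control replicate 8, whose HSF3 ratio had been left blank at a Ct of 19.7 cycles, enters in that case.

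At the other hourly points the HSF3 groups overlapped widely and none of the differences passed. They were −0.49 at 30 min, −0.74 at 2 h, −0.06 at 3 h, −0.30 at 4 h, 0.65 at 5 h and −0.35 at 7 h. The livers of 3 h and 5 h came from the same incubators as those of 1 h. In TM livers the mean of HSF3 was 0.87 at 1 h, −0.47 ± 1.34 at 3 h (n = 7) and 0.24 ± 2.44 at 5 h (n = 6). Neither the change in TM livers of those incubators (limma F test over these 3 points, adjusted p = 0.578) nor the difference of the TM effect between these points (interaction F test, adjusted p = 0.665) passed.

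HSF2 was lower in TM livers 30 min after the increase. Its log2 ratios ran over −0.79, −0.05 and 0.55 (lowest, median and highest) in TM livers and over −0.10, 0.30 and 1.26 in control livers. Of the control livers, 3 stood above every TM liver, and the other 4 lay within the TM range. The mean was −0.06 ± 0.45 in TM livers (SD, n = 8) and 0.55 ± 0.61 in control livers (n = 7), a difference of −0.61 (95% interval −1.20 to −0.02, fold 0.656, exact permutation p = 0.0483, limma adjusted p = 0.559). At this point 7.79% of 77 genes passed, 5.19% lower and 2.6% higher in TM. The reference gene STAB1 had a lower Ct in TM livers (19.4 ± 0.492 cycles, n = 8) than in control livers (20.6 ± 0.927 cycles, n = 7, exact permutation p = 0.00202), and with each liver centred on the panel the difference of HSF2 was −0.47 (exact permutation p = 0.0465). Leaving out any of 10 of the 15 livers ended the call, with exact permutation p up to 0.102 (without control replicate 4, difference −0.49). At the other 6 hourly points the differences of HSF2 lay between −0.74 (4 h) and 0.00 (7 h), and none passed.

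HSBP1, the HSF1-binding inhibitor, was lower in TM livers at 3 h. Its log2 ratios were −1.61, −1.07 and 0.28 (lowest, median and highest) in TM livers, against −1.39, 0.29 and 2.21 in control livers. Of the 7 TM livers, 6 were below −0.5, while the 8 control livers were spread over both sides of 0. The mean was −0.88 ± 0.62 in TM livers (SD, n = 7) and 0.42 ± 1.41 in control livers (n = 8), a difference of −1.29 (95% interval −2.39 to −0.19, fold 0.408, exact permutation p = 0.0457, limma adjusted p = 0.512). At this point 12.2% of 74 genes passed, all of them lower in TM, and the median difference of all genes tested was −0.31. The Ct of luciferase, a foreign RNA added to each sample as a reference, was 21.3 ± 1.07 in TM livers and 22.3 ± 0.966 in control livers (n = 8 each, exact permutation p = 0.0536). With endogenous reference genes only, the difference of HSBP1 was −1.09 (exact permutation p = 0.0862). After centring every liver on its panel mean it was −0.95 (exact permutation p = 0.0595), and leaving out any of 10 of the 15 livers ended the call (highest exact p = 0.0842, without TM replicate 8). With every deposited Ct turned into a ratio, TM replicate 7, left blank at a Ct of 21.3 cycles, entered with 1.76. The difference of HSBP1 was then −0.97 and did not pass (exact permutation p = 0.145).

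At 7 h HSBP1 was lower in TM livers by its ratio. Its log2 ratios were −1.33, 0.31 and 1.75 (lowest, median and highest) in TM livers, and 0.47, 1.03 and 2.16 in control livers. Of the 8 TM livers, 4 were below 0.47, the lowest value of the 7 control livers. The mean was 0.20 ± 1.07 in TM livers (SD, n = 8) and 1.27 ± 0.63 in control livers (n = 7), a difference of −1.07 (upper end of the 95% interval −0.14, fold 0.476, exact permutation p = 0.0409, limma adjusted p = 0.277). Here 13.7% of 73 genes passed, all lower in TM, and the median difference of all genes was −0.29. The reference genes differed between the groups at this point: their geometric mean Ct was 17.9 ± 0.868 cycles in TM livers and 19.1 ± 0.868 in control livers (n = 8 each, exact permutation p = 0.00544). The Ct of luciferase was 21.3 ± 1.40 in TM livers and 24.0 ± 3.30 in control livers (exact permutation p = 0.0247), with 31.4 cycles in control replicate 6. The Ct of HSBP1 itself was 21.8 ± 1.21 cycles in TM livers (n = 8) and 21.9 ± 0.836 in control livers (n = 7). Without luciferase as a reference the difference of HSBP1 was −0.66 (exact permutation p = 0.135), and without control replicate 6 it was −0.97 (p = 0.0746). After centring every liver on its panel mean it was −0.69 (exact permutation p = 0.155). Leaving out any of 8 of the 15 livers ended the call (highest exact permutation p = 0.0816, without control replicate 1). The control mean of HSBP1 was −0.03 at 5 h and 1.27 at 7 h, a change that did not pass limma's adjusted p (0.271) and compares different incubators. Within the incubators of 7 h, the control rise was 1.17 from 4 h (limma adjusted p = 0.170, exact permutation p = 0.00175). From 30 min it was 1.42 (limma adjusted p = 0.169, exact permutation p = 0.0138). The share over the panel was not counted for these steps. Over the control groups of these incubators HSBP1 did not pass (limma F test, adjusted p = 0.248, passed by 3.7% of 81 genes).

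The differences of HSBP1 at the other 5 hourly points were between −0.71 (5 h) and 0.21 (1 h), and none passed. The change of its TM effect over the 7 hourly points did not pass either (limma interaction F test, adjusted p = 0.569).

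HSF1 was not called at any hourly point. It could be tested at 4 of the 7 points. TM minus control was 1.19 at 1 h, −0.33 at 4 h, −0.86 at 5 h and 1.11 at 7 h, with 95% intervals as wide as −1.20 to 3.58 at 1 h (smallest exact permutation p = 0.336). Single livers with very low ratios entered these means. At 1 h, the 7 TM livers lay between −1.20 and 1.05. Of the 8 control livers, 3 were between −5.11 and −4.95 and the other 5 were between 0.31 and 2.46. At 2 h, only 4 TM livers had a ratio of HSF1, with −3.04, 0.96, 1.88 and 3.87. The 5 control livers with a ratio had −11.3, −8.44, −2.59, −1.20 and 0.85. These groups overlapped, and the difference of 5.45 was below the minimum number of livers. By the exact permutation test it gave p = 0.119, and in a single limma fit of all groups of the trial the adjusted p was 0.0470. The share of genes passing in that fit was not counted. With ratios recomputed for every deposited Ct, control replicate 4 entered with 2.52. The difference was then 4.27 (exact permutation p = 0.210). The lowest 2 control values correspond to Ct of 34.4 and 30.9 cycles, beyond the 30 cycles of the amplification program. With them the control mean of 2 h was −4.53, and those of the other points of the same incubators were between −0.44 and 0.13 (limma F test over these 4 control groups, adjusted p = 0.0491, passed by 3.7% of 81 genes). Over all 7 control groups HSF1 did not pass (adjusted p = 0.0695, passed by 2.47% of genes).

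**Figure D3:**
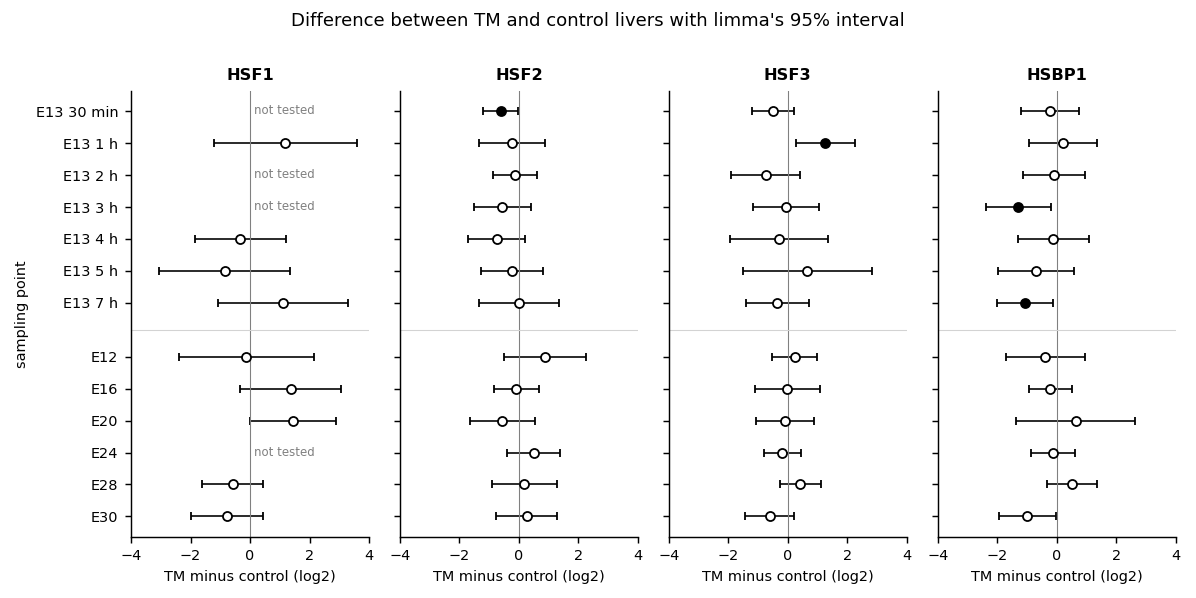
TM minus control difference of the mean log2 ratio (x axis) at each sampling point (rows) for each member, with limma's 95% interval. Filled circles passed the exact permutation test (HSF2 at 30 min, HSF3 at 1 h, HSBP1 at 3 h and 7 h), and open circles did not.

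Chaperones and co-chaperones were measured in the same livers (HSPA2, HSPA5, HSP90AA1, HSP60, HSP10, DNAJA2, DNAJB12 and ST13). This class includes genes on which heat shock factors act. Whether the factors act on each of these 8 genes in duck liver was not tested. At 30 min, when HSF2 was lower, 1 of 8 passed, against 7.79% of the 77 genes tested, and was higher in TM: HSP90AA1, the inducible cytosolic HSP90, by 0.34 (exact permutation p = 0.0494). At 1 h, when HSF3 was higher, 2 of 8 passed, against 10.7% of 75 genes, and both were lower in TM. HSPA2, of the HSP70 family, averaged −1.21 ± 0.56 in TM livers and 0.79 ± 1.40 in control livers (n = 8 each, exact permutation p = 0.00342), and HSP60, the mitochondrial chaperonin, averaged 1.16 ± 1.17 in TM livers and 2.41 ± 0.72 in control livers (n = 7 each, p = 0.0175). At 3 h, when HSBP1 was lower, 3 of 8 passed and were lower, against 12.2% of 74 genes, also all lower. The median difference was −0.31 over the 8 chaperones and −0.31 over all genes tested. The 3 had differences of −0.65 for the HSP40 co-chaperone DNAJA2, −0.59 for the co-chaperonin HSP10 and −0.29 for the HSP70-interacting protein ST13 (exact permutation p = 0.00684, 0.0294 and 0.0443). At 7 h none of the 7 chaperones tested passed the exact test. The chaperones called here had limma adjusted p of 0.0653 (HSPA2) or above. Chaperones also passed the exact test at points where no member did. At 5 h, 1 of 8 was higher and 1 was lower in TM, against 14.5% of 76 genes. At E12, before any increase, 2 of 8 were higher (7.69% of 78 genes), and at E20 2 were higher (10.4% of 77). At E24, 2 were higher and 1 was lower (9.09% of 77), and at E30 2 were lower (10% of 80).

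From E12 to E30 none of the 23 differences that could be tested for the members passed the exact permutation test, against 10.6% of 471 differences over the panel. By limma's unadjusted p, 2 of the 23 were below 0.05 (HSF1 at E20 and HSBP1 at E30), and the smallest adjusted p of a member was 0.294. The share over the panel was not counted for the unadjusted p. By the adjusted p, 0.212% of the 471 passed, which was 1 gene at E20 (1.3% of 77). Of the 23 differences, 10 were above 0 and 13 were below. Over the panel, the genes higher in TM ran from 33 of 80 at E30 to 66 of 80 at E16. At E12, before any temperature increase, 7.69% of 78 genes passed the exact test between eggs of the 2 incubators, and the differences of the members ran from −0.38 (HSBP1, exact permutation p = 0.604) to 0.88 (HSF2, p = 0.300). That of HSF1 was −0.12 (exact permutation p = 0.988), with medians of −0.36 in TM and 1.18 in control livers. Its control mean held a liver at −7.45 (Ct of 29.2 cycles). With Ct above 24 cycles left out, the HSF1 difference was −1.20 and passed (exact permutation p = 0.0134). The share over the panel was not counted for that setting. At E28 the share of genes passing was 8.86%.

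HSF1 was nearest to the threshold at E20. Its log2 ratios were −0.95, 0.10 and 0.75 (lowest, median and highest) in TM livers and −4.54, −1.84 and 1.04 in control livers. All 8 TM livers were between −0.95 and 0.75, while 4 of the 7 control livers were below −1.8. The mean was 0.05 ± 0.63 in TM livers (SD, n = 8) and −1.41 ± 1.95 in control livers (n = 7), a difference of 1.46 (95% interval 0.01 to 2.90, exact permutation p = 0.0608, limma adjusted p = 0.416), at a point where 10.4% of 77 genes passed. Leaving out control replicate 3, 4 or 7 brought it past the threshold (exact permutation p = 0.0127, 0.0373 and 0.0323), and no other liver did. Without control replicate 1, the lowest, the difference was 0.93 (exact permutation p = 0.139). TM replicate 1 at this point had a Ct for only 1 of the 4 reference genes and an ALB Ct of 22.5 cycles. Without this liver the difference was 1.53 (exact permutation p = 0.0653).

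At E16 the difference of HSF1 was 1.37 (n = 7 TM and 4 control livers, exact permutation p = 0.155), and 17.5% of 80 genes passed at this point. The TM livers ran from −1.29 to 1.59. The control livers had −3.17, −1.32, 0.31 and 0.87. The last is replicate 7, which had a Ct for 1 of the 4 reference genes and a ratio for 20 of the 81 genes. Its ALB Ct was 23.7 cycles. Without this liver the difference of HSF1 was 1.94 with 3 control livers (exact permutation p = 0.0417), and without control replicate 3, the lowest, it was 0.59 (p = 0.475). At E24, 5 TM livers had a ratio, with 0.71, 0.81, 1.04, 1.04 and 1.25, and the 7 control livers ran from −0.89 to 0.82. The difference of 0.93 was below the minimum number of livers, and gave p = 0.0152 by the exact permutation test, which 9.09% of 77 genes passed. A Ct of HSF1 had been deposited without a ratio for 3 further TM livers, which came to 2.33, −0.46 and −0.43 when recomputed, and for 1 control liver, which came to 1.62. With ratios recomputed for every deposited Ct, the HSF1 mean at E24 was 0.78 in TM livers and 0.23 in control livers (n = 8 each), a difference of 0.55 that did not pass (exact permutation p = 0.224). At E28 and E30 the differences were −0.58 and −0.78, and neither passed. The change of the HSF1 effect over the days was not past the threshold (limma interaction F test, adjusted p = 0.499).

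HSBP1 was next, at E30. The log2 ratios were −2.57, −0.96 and 0.35 (lowest, median and highest) in TM hatchlings and −1.99, 0.40 and 0.89 in control hatchlings. Only 1 of 8 TM livers was above 0, against 5 of 8 control livers. The mean was −1.02 ± 1.02 in TM livers and −0.04 ± 0.92 in control livers (SD, n = 8 each), a difference of −0.98 (95% interval −1.94 to −0.02, exact permutation p = 0.0642, limma adjusted p = 0.550), where 10% of 80 genes passed. Without TM replicate 6 or control replicate 7 it passed (exact permutation p = 0.0319 and 0.0127), and without any other liver it did not. From E12 to E28 the differences of HSBP1 were between −0.38 and 0.63.

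HSF2 and HSF3 were farther from the threshold. The differences of HSF2 over the 6 days lay between −0.56 (E20) and 0.88 (E12), with a smallest exact permutation p of 0.293. Those of HSF3 lay between −0.61 (E30) and 0.41 (E28), with a smallest exact permutation p of 0.155. The interval of HSF3 at E24 was the narrowest of its intervals, from −0.80 to 0.43.

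**Figure D4:**
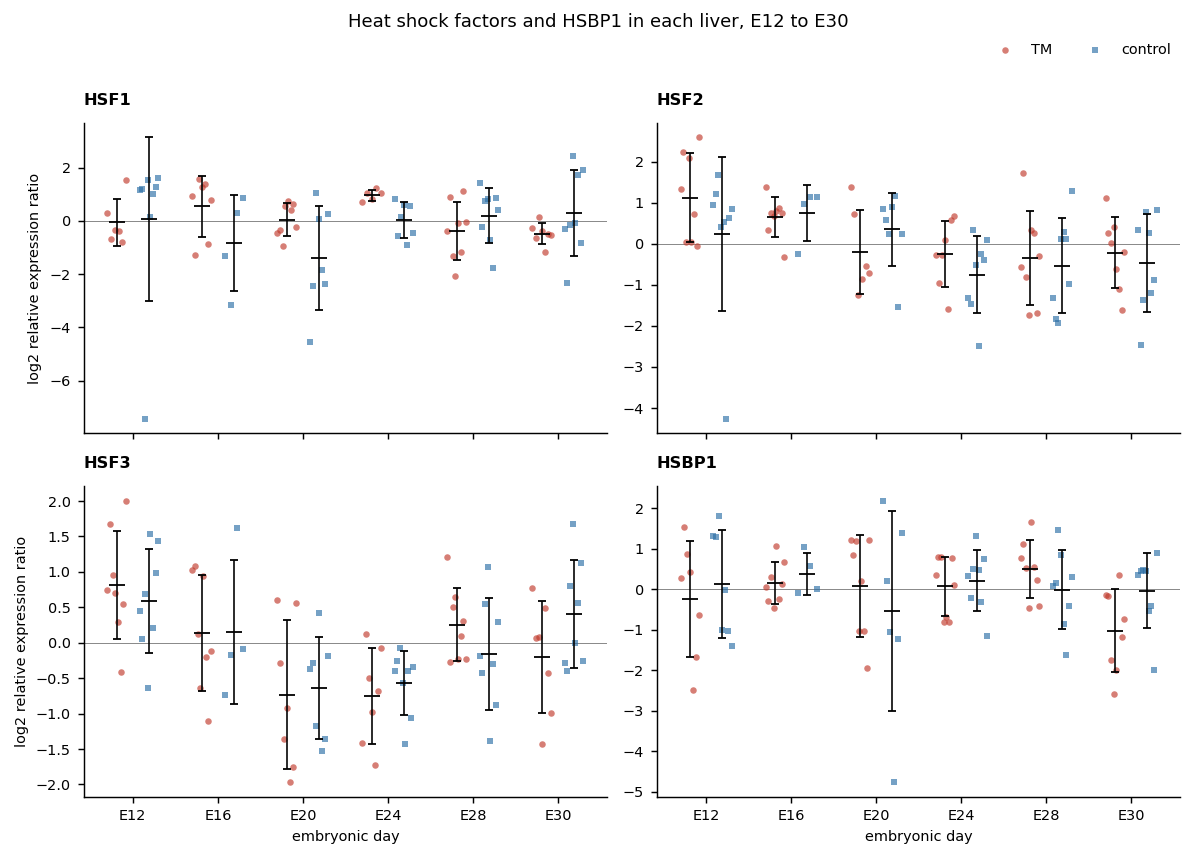
Log2 relative expression ratio of each member in each liver of the second trial (y axis) by embryonic day (x axis), with TM livers as circles left of the control livers (squares) and black bars for the mean and SD of each group. The HSF3 means of both groups are highest at E12 (0.81 in TM livers and 0.59 in control livers) and lowest at E20 and E24, and no difference between TM and control passed.

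HSF3 changed most clearly with age. Its mean was 0.81 ± 0.76 in TM livers and 0.59 ± 0.73 in control livers at E12, and 0.14 ± 0.82 and 0.15 ± 1.02 at E16. It then reached −0.74 ± 1.05 in TM livers and −0.64 ± 0.72 in control livers at E20 and −0.75 ± 0.68 and −0.57 ± 0.45 at E24. At E24, 6 of the 7 TM livers and all 8 control livers were below 0. At E28 the means were 0.26 ± 0.52 in TM livers and −0.16 ± 0.79 in control livers, and at E30 they were −0.20 ± 0.79 and 0.40 ± 0.76 (n = 7 or 8, except 4 control livers at E16). The variation over the 6 days passed in both groups (limma F test, adjusted p = 0.00104 in TM livers and 0.0196 in control livers). This is common in the panel, as 72.5% of 80 genes passed in TM livers and 65% in control livers. After centring every liver on a panel mean, which here rests on only 11 genes, HSF3 passed in neither group, and with every deposited Ct turned into a ratio it did not pass in control livers. Between neighbouring days, none of the changes of HSF3 passed the adjusted p; the nearest was the step from E24 to E28 in TM livers, by 1.01 (limma adjusted p = 0.0774, passed by 12.5% of 80 genes). From E12 to E30 it fell by 1.02 in TM livers (adjusted p = 0.0196, passed by 58.8% of 80 genes), against a change of −0.19 in control livers (adjusted p = 0.714, passed by 55%). Over all points the TM effect on HSF3 did not change past the threshold (interaction F test, adjusted p = 0.659, passed by 3.75% of genes).

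HSF2 was also highest early, at E12 in TM livers and at E16 in control livers. In TM livers its mean was 1.12 ± 1.08 at E12, 0.65 ± 0.49 at E16, −0.21 ± 1.02 at E20, −0.25 ± 0.81 at E24, −0.35 ± 1.14 at E28 and −0.22 ± 0.87 at E30 (n = 6 to 8). In control livers it was 0.24 ± 1.87, 0.75 ± 0.67, 0.35 ± 0.90, −0.75 ± 0.94, −0.53 ± 1.15 and −0.47 ± 1.19 on the same days (n = 4 to 8). The F test over the days passed in neither group (adjusted p = 0.0670 in TM and 0.122 in control livers). In TM livers HSF2 fell by 1.34 between E12 and E30 (95% interval −2.40 to −0.28, limma adjusted p = 0.0247), a contrast that 58.8% of 80 genes passed. The change of HSF2 in control livers was −0.72 (adjusted p = 0.278), where 55% of the genes passed. The difference between these changes was −0.62 (95% interval −2.12 to 0.88) and did not pass (limma adjusted p = 0.654).

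The variation of HSBP1 over the days passed in neither group. The limma F test gave an adjusted p of 0.156 in TM livers (passed by 72.5% of 80 genes) and 0.802 in control livers (passed by 65%). HSBP1 stayed near its mean until E28, with group means between −0.24 and 0.50 in TM livers and between −0.54 and 0.38 in control livers. In TM livers it then fell by 1.52 between E28 and E30 (95% interval −2.63 to −0.41, limma adjusted p = 0.0236, passed by 33.8% of 80 genes). In control livers the change over the same days was −0.03 (95% interval −1.14 to 1.08, passed by 28.8% of genes). The difference between these changes was −1.49, with an interval from −3.06 to 0.08 (limma adjusted p = 0.598), so it did not pass. HSF1 varied over the days past the threshold in neither TM livers (adjusted p = 0.453) nor control livers (adjusted p = 0.209). Its lowest mean was that of E30 in TM livers (−0.47) and that of E20 in control livers (−1.41).

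The genes whose group means were most like those of each member were looked up in the panel, by Pearson's r over the 12 group means of the second trial, without a test, since all genes share the reference genes of a liver. For HSF3 the 3 most similar of 79 genes were chaperones: DNAJA2 (r = 0.89), HSP10 (r = 0.84) and HSPA5, the HSP70 of the endoplasmic reticulum (r = 0.84), whereas the median over all genes was 0.31. DNAJA2 averaged 0.79 in TM livers and 0.59 in control livers at E12, and −0.53 in TM livers and −0.59 in control livers at E24. HSPA5 averaged 0.45 in TM livers and 0.58 in control livers at E12, and −0.65 in TM livers and −1.19 in control livers at E24. With each liver centred on the panel (a mean of 11 genes), DNAJA2 (r = 0.81) and HSPA5 (r = 0.80) remained the closest and HSP10 was the sixth (r = 0.60). For HSF2 they were ACSS (an acetyl-CoA synthetase, r = 0.89), the proteasome subunit PSMD12 (r = 0.79) and TET1, which oxidizes methylated cytosine (r = 0.78). For HSBP1 they were the histone methyltransferase SETDB1 (r = 0.76), ACSL1 (r = 0.57) and GLUT3 (r = 0.53), and for HSF1 the RNA-binding protein TIA1 (r = 0.57), GLUT3 (r = 0.55) and SETDB1 (r = 0.53). With centring, the 3 of HSBP1 were kept, whereas of those of HSF2 only ACSS (r = 0.82) and of those of HSF1 only TIA1 (r = 0.82) stayed among the 3 closest. The new ones of HSF2 were TGFB1 (r = 0.68) and the chaperone HSPA2 (r = 0.66), which was at rank 10 without centring (r = 0.72). Those of HSF1 were ACAD11 (r = 0.64) and ATG7 (r = 0.58).

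**Figure D5:**
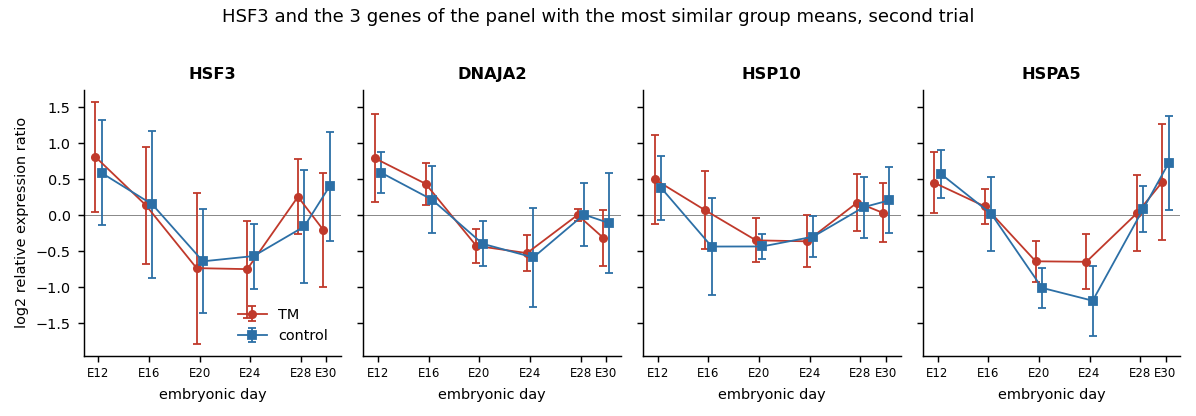
Mean log2 relative expression ratio (y axis) of HSF3, DNAJA2, HSP10 and HSPA5 by embryonic day (x axis) in TM livers (circles) and control livers (squares), with SD as error bars. The group means of the 3 chaperones follow those of HSF3 with r of 0.89, 0.84 and 0.84 over 12 groups, and all 4 genes are lower at E20 and E24 than at E12 in both groups.

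Over the 14 group means of the first trial the likeness was weaker. The closest to HSF3 were BNIP3 (r = 0.54), ACAT1 (r = 0.49) and HSP10 (r = 0.48) of 80 genes, and those to HSF2 were ACC (r = 0.55), ELP3 (r = 0.54) and JMJD1C (r = 0.47). For HSF1 they were ME (r = 0.45), DGAT2 (r = 0.39) and IL18 (r = 0.36). HSBP1 had a closer match in GPAT1, an enzyme of glycerolipid synthesis (r = 0.77), followed by the histone methyltransferase EZH2 (r = 0.64) and ALDH3A2 (r = 0.63). With each liver centred on the panel, whose mean rests on only 8 genes in this trial, these 3 remained the closest to HSBP1. For HSF3 all 3 were replaced, by ACAD11 (r = 0.54), ChREBP (r = 0.41) and ME (r = 0.36), and for HSF2 as well, by HSP10 (r = 0.77), TUBA1C (r = 0.72) and ENO1 (r = 0.69), while for HSF1 ME was kept (r = 0.45) beside LIPC (r = 0.51) and PPARA (r = 0.45). The members were not among each other's 3 closest genes in either trial. The highest r between members was 0.49, between HSF2 and HSF3 in the second trial, at rank 25 for HSF3.

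The members were also set against each other among livers of the same group. Of the 12 relations computed (6 pairs in 2 trials, on deviations from the group mean), only that of HSF3 and HSBP1 in the second trial passed, with Pearson's r = 0.35 and Spearman's rho = 0.36 over 84 livers (permutation test, adjusted p = 0.0218 and 0.0270). Without the 2 livers farthest from the median r was 0.34. In the first trial the same pair had r = 0.28 and rho = 0.20 over 94 livers (permutation test, adjusted p = 0.0691 and 0.219). With each liver centred on the panel, the relation of the second trial was r = 0.25 and did not pass (permutation test, adjusted p = 0.451). The share of gene pairs passing over the panel was not counted, and all genes share the reference genes of a liver. HSF1 and HSBP1 had r = 0.12 in the first trial and −0.25 in the second (permutation test, adjusted p = 0.527 and 0.256). In the second trial their rho was −0.12 (permutation test, adjusted p = 0.621), and without the 2 livers farthest from the median r was −0.07.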

How the data were processed

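Livers had been assayed on Fluidigm quantitative PCR chips (EvaGreen). The authors deposited relative expression ratios, 2 to the power of minus ∆∆Ct, relative to 4 reference genes of the trial (1 of them luciferase RNA, which was added to the samples) and to the average of the gene over the trial, and Ct values in cycles. R 3.6.2 stands in the submitters' processing notes. 1 column of values in the Ct table bears no liver's name and was not used, so 205 livers had ratios and 204 had Ct. The deposited ratios could be recomputed from the Ct within 1.43e-06 on the log2 scale in the first trial, after 1 constant per gene. Ratios were put on the log2 scale with no pseudocount. Exact permutation tests and limma used Python 3.11.15, scipy 1.17.1, R 4.3.3 and limma 3.58.1, and were tested on simulated data. Changes over points and interactions came from 1 limma fit per trial (at least 3 livers per group). In the report, the members are named at every point, with the 3 genes most like each and the chaperones called where a member is. Members, lists and tests were chosen with earlier results of these data known. Replicates are separate livers, and the labels do not say whether their numbers pair TM with control. In the first trial, the study's methods had control and TM eggs dissected in turn. The main tests took the livers as unpaired, and a paired fit was an alternative. The number of livers limits the precision. Alternatives were all deposited Ct, endogenous reference genes, centring on the panel, other minimum numbers and Ct limits, other tests and livers left out.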

Additional observations from a re-analysis of the deposited data

Results flagged for a closer look

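In 14 of the 104 groups of livers examined for the members, the lowest liver stood apart from the rest of its group by Dixon's criterion. Chance gives about 1 in 20 groups where no value has been left out beforehand. All 14 were the lowest liver and none was the highest. These are deposited ratios, some of which had been left blank although a Ct was deposited. When recomputed, the blank ratios lay above the range of their group in 27 cases and below it in 4. High values had thus mostly been left out before, so neither the number of flags nor their direction can be read as a trait of the livers.

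For HSF1 these were TM replicate 5 at 5 h, with a log2 ratio of −5.85 (Ct of 28.8 cycles), control replicate 7 at 7 h with −5.49 (29.2 cycles) and control replicate 3 at E12 with −7.45 (29.2 cycles). All 3 had a Ct for the 4 reference genes and a ratio for 73 to 80 of the 81 genes. For HSF2 they were TM replicate 1 at 5 h (−2.72), control replicate 7 at 7 h (−4.20), control replicate 6 at E12 (−4.27), control replicate 1 at E16 (−0.25, where the other 3 control livers were between 0.96 and 1.15) and control replicate 7 at E20 (−1.53). For HSF3 they were TM replicate 6 at 1 h (−0.79), control replicate 7 at 1 h (−2.65), TM replicate 3 at 2 h (−4.17, a liver without a luciferase Ct), control replicate 6 at 4 h (−3.97) and, at 5 h, TM replicate 1 (−4.32). For HSBP1 it was control replicate 7 at 1 h (−3.01).

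Some livers were low for more than 1 member. TM replicate 1 of 5 h was so for HSF2 and HSF3, control replicate 7 of 7 h for HSF1 and HSF2, and control replicate 7 of 1 h for HSF3 and HSBP1, with −5.06 for HSF1 as well. HSF2 of control replicate 7 at 1 h was 1.19, the highest of its group. At 1 h both a TM and a control liver were apart for HSF3; without the TM liver the exact permutation p was 0.00233, and without the control liver the difference between TM and control was 0.89 (exact permutation p = 0.0370).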

How the results depend on the processing

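Of the 25 hourly differences, 4 passed with the deposited ratios. Recomputing ratios for every deposited Ct left 2 (HSF2 at 30 min and HSBP1 at 7 h). The number was 2 with endogenous reference genes only and 2 with centring on the panel (each HSF2 at 30 min and HSF3 at 1 h). It was 1 on linear ratios and 1 by the methods' own test for 2 groups (each HSF3 at 1 h), and 0 by the permutation test with Benjamini-Hochberg or limma's adjusted p. The paired fit (replicate block) left 1 at the unadjusted p (HSF3 at 1 h), and 0 at the adjusted p. One limma fit of the trial gave 1 at the adjusted p, HSF1 at 2 h, which had too few livers to be among the 25. Both adjusted counts were added after seeing the data, as was leaving out single livers at the called points, E20 and E30. HSBP1 at 3 h had no value without Ct above 24 cycles. Of the 23 daily differences, 0 passed. With at least 3 livers per group the number was 1, HSF1 at E24, which is not among the 23. Without Ct above 24 it was 1 (HSF1 at E12, before any increase, −1.20, exact permutation p = 0.0134). It was 1 on linear ratios, 1 by the methods' test and 1 with the replicate block at the unadjusted p (each HSBP1 at E30). By limma's unadjusted p it was 2, and with each E16 liver left out in turn it was 0 to 1. Shares over the panel were not counted for the alternatives, except for limma's adjusted p. Same-numbered livers correlated above 0.1 in 28 of 101 pairs, and at 0 of 13 points in all pairs.

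Members past the adjusted F test over control groups of the first trial were 0. They were 1 with centring, on a mean of 8 genes, and 1 without livers with few reference genes. In the second trial they were 1 in control livers (0 with all deposited Ct, 0 with centring) and 1 in TM livers (0 with centring, 3 in a fit of TM livers alone). In the main fits, 2.47% of 81 genes passed in control livers of the first trial. In the second trial 65% of 80 genes passed in control livers and 72.5% in TM livers. The shares of this F test under the alternatives were not counted. No called difference changed sign under any of these alternatives. The causes were not tested. Late Ct limit HSF1 most.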
